A study of Mus musculus with 2 samples.

Results

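The genes of the miR-297, miR-466, miR-467 and miR-669 families form a large group of related microRNA (miRNA) genes in the mouse, most of them inside an intron of Sfmbt2, which encodes a Polycomb-group protein. Members were the miRNA genes whose GENCODE M21 symbol is Mir297, Mir466, Mir467 or Mir669 followed by a letter and, where present, a copy number. This gave 79 of the 2202 miRNA genes counted (3.59%), with 5 Mir297, 27 Mir466, 17 Mir467 and 30 Mir669 genes. Mir466 and Mir297-1, whose symbols carry no letter, fell outside the rule and had 0 reads in both libraries. Each library was made from the total RNA of left cerebral cortex, taken on postnatal day 10 from 1 of 2 B6CASTF1/J males, F1 animals of a cross between B6 and CAST, with inserts in the labelled size range below 30. They form 1 group of 2 biological replicates, with no treatment, mutant allele or second condition. Both tissues are listed under 1 donor entry and are numbered as separate males.

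A miRNA is cut from a hairpin precursor and guides Argonaute proteins to messenger RNAs, mainly through its seed, the bases near its 5′ end. The intronic array of Sfmbt2 is known from rodents and arose by repeated duplication. It is known as abundant in embryonic stem cells and placenta, where Sfmbt2 is expressed from the paternal chromosome and the array is required for normal placental growth. Many hairpins of these families are rich in alternating UG or CA bases, so that 1 mature strand can match several copies.

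RefSeq (GRCm38.p6) matched 8 of the 79 members with a mature strand, all of them at loci outside Sfmbt2. They are shown as the members with such an entry, and they display the repeat character of these outside loci. They do not stand for the intronic members, for which no mature strand was matched. Capitals mark the seed, bases 2 to 8.
miR-466j: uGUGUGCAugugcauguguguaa
miR-466k: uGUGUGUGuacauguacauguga
miR-669n: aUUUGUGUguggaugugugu
miR-467h: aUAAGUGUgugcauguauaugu
miR-466i-3p: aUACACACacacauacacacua
miR-466q: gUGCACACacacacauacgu
miR-467f: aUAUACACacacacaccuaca
miR-467g: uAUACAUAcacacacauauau
The first 4 consist of U and G for 68.2% to 90.0% of their bases, and the other 4 for 13.6% to 30.0%, being rich in A and C instead. Each holds an unbroken alternation of U with G or of A with C, from 7 bases in miR-466j and miR-467h to 12 in miR-466q and miR-467f. The 8 strands carry 8 different seeds, so no seed was shared among them. All 8 genes had 0 reads in both libraries.

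The sense counts summed to 2677910 reads over all miRNA genes in replicate 1 and to 1750076 in replicate 2. Levels are given in CPM, counts scaled to 1000000 of these assigned reads, and a count of 3 reads corresponds to 1.12 and 1.71 CPM. Reads with several mapping places count for no gene, and they numbered 3467794 in replicate 1 and 2104180 in replicate 2 (51.2% and 49.2% of mapped reads). A member's count is therefore a lower limit wherever its mature strand also occurs in another copy. Of 14 brain marker genes 10 were detected, with the neuronal Mir137 at 11808 and 8069 CPM and Mir128-1 at 18242 and 9510 CPM. The other 4 were Mir124a-1, Mir124a-2, Mir124a-3 and Mir9-2, with 0 to 3.73 CPM. All 4 share 20 bases with another hairpin, and 11 of the 14 brain marker genes do, the abundant Mir128-1 included. The part of multiple mapping in the low counts of these 4 genes was not tested. Of 14 genes of the stem cell and early trophoblast list (the Mir290 and Mir302 clusters), 1 was detected, and the list summed to 20 reads in replicate 1 and 10 in replicate 2. The detected gene was Mir302d, with 5.60 and 2.29 CPM (15 and 4 reads). In either library 6 of the 14 had a read, and Mir290a, Mir291a and Mir295 were among those with 0 reads. Of 5 blood genes all were detected, at a summed 920 CPM in replicate 1 and 152 CPM in replicate 2. The gap lay mostly in Mir451a (737 and 20.6 CPM) and Mir144 (52.3 and 10.3 CPM). Mir142 (91.1 and 80.0 CPM), Mir223 (14.6 and 15.4 CPM) and Mir486 (25.4 and 25.7 CPM) were nearly equal. The part of blood content in the values below was not tested.

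The members together held 5305 reads (1981 CPM) in replicate 1 and 3793 reads (2167 CPM) in replicate 2. As a share of assigned reads this was 0.198% (95% Wilson limits 0.193 and 0.204) and 0.217% (0.210 and 0.224), a mean of 0.207% ± 0.0132 (SD, n = 2). These limits cover only the counting error of reads within 1 library. They take PCR copies of 1 molecule as separate reads, so they can be too narrow. All of these reads came from members in the Sfmbt2 intron, and the 9 members at other loci had none. In GENCODE M21, 70 members lie on the plus strand in intron 10 of transcript Sfmbt2-201, on chromosome 2 at 10461473 to 10523944 (mm10), which is intron 11 of Sfmbt2-205. The label by host gene thus described 70 of 79 members and all of the member reads.

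Reads were concentrated in a few hairpins of the miR-467 and miR-669 families. Of the 79 members, 15 had a read in either library and 8 reached 2 CPM in both, the level called detected. That is 10.1% of members, against 20.1% of all 2202 miRNA genes. The members that passed are described below, while the other 71 are not shown to be silent, since reads shared between copies are left out. The 4 most abundant members held 94.3% of member reads in replicate 1 and 91.4% in replicate 2.

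Mir467d was the highest member, at 935 CPM (2505 reads) in replicate 1 and 766 CPM (1341 reads) in replicate 2. It averaged 851 ± 120 CPM (SD, n = 2) and stood at position 117 among all miRNA genes by mean CPM. The gene lies on chromosome 2 at 10507630 to 10507714. Mir669c, at 10509296 to 10509404, had 450 and 629 CPM (1204 and 1101 reads). Its mean was 539 ± 127 CPM, that of Mir467d was 1.58 times higher, and the libraries of the 2 genes did not overlap.

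Mir467e, at 10505721 to 10505807, had 329 and 342 CPM (882 and 599 reads), a mean of 336 ± 9.13 CPM, the smallest SD relative to its mean among the detected members. Mir669o, at 10514300 to 10514395, had 153 and 243 CPM (411 and 425 reads) and averaged 198 ± 63.2 CPM. Each of these 4 genes was higher in both libraries than the next one in the order.

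Below them the order of neighbouring members was not resolved, though Mir669h lay below both Mir669l and Mir467c in each library. Mir669l, at 10468971 to 10469068, had 39.6 CPM (106 reads) in replicate 1 and 97.1 CPM (170 reads) in replicate 2, averaging 68.4 ± 40.7 CPM. Mir467c, at 10473931 to 10474027, had 54.1 and 39.4 CPM (145 and 69 reads). Its mean of 46.8 ± 10.4 CPM lay below that of Mir669l, but in replicate 1 Mir467c was the higher of the 2. Mir669e, at 10467495 to 10467613, had 6.72 CPM (18 reads) in replicate 1 and 40.6 CPM (71 reads) in replicate 2. Its mean of 23.6 ± 23.9 CPM has an SD as large as the mean, and in replicate 2 Mir669e stood slightly above Mir467c. Mir669h, at 10518155 to 10518279, was the lowest detected member at 7.47 and 5.14 CPM (20 and 9 reads), below Mir669e in replicate 2 and just above it in replicate 1. From Mir467d to Mir669h the detected members spanned 135-fold in mean CPM.

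**Figure D1:**
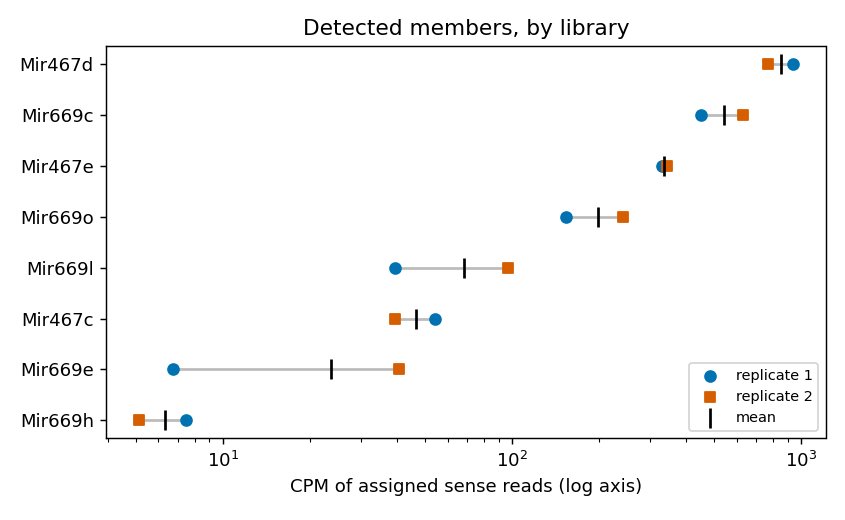
CPM of assigned sense reads on a log axis for the 8 detected members, with a circle for replicate 1, a square for replicate 2 and a black bar for their mean. The upper 4 members keep their order in both libraries, while Mir669l, Mir467c, Mir669e and Mir669h overlap their neighbours, and Mir669e spans 6.72 to 40.6 CPM.

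Another 7 members had reads without being detected. Mir297a-2 had 0 reads in replicate 1 and 4 in replicate 2, or 2.29 CPM, and was the one member to reach 2 CPM in a single library. Mir669f had 2 and 3 reads, Mir466n 5 and 0, and Mir669m-1 and Mir466h 3 and 0 each. Mir466p had 1 read in replicate 1 and Mir466d 1 read in replicate 2. The members nearest to the detection level were thus Mir669h inside it and Mir669f, with 0.747 and 1.71 CPM, outside it. The remaining 64 members had 0 reads in both libraries, which allows up to 1.12 CPM in replicate 1 and 1.71 CPM in replicate 2 for reads assignable to a single place.

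The 4 families differed in the assigned reads they contributed. Their sums leave out reads with several mapping places, so they do not rank the families by expression. The 17 Mir467 genes summed to 1319 CPM in replicate 1 and 1148 CPM in replicate 2, a mean of 1233 ± 121 CPM, all of it from Mir467c, Mir467d and Mir467e. The 30 Mir669 genes summed to 659 and 1017 CPM, a mean of 838 ± 253 CPM, with 7 genes having a read and 5 detected. The 27 Mir466 genes had 9 reads in replicate 1 and 1 in replicate 2, spread over 4 genes, and none was detected. The 5 Mir297 genes had 0 and 4 reads, all from Mir297a-2. Mir467 genes held 66.6% of member reads in replicate 1 (95% Wilson limits 65.3 and 67.8) and 53.0% in replicate 2 (51.4 and 54.6), and Mir669 genes 33.3% (32.0 and 34.5) and 46.9% (45.3 and 48.5). These compositions belong to the 2 libraries, and with 1 library per animal their differences cannot be assigned to the animals.

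Along the intron the assigned reads lay at the ends of the array. The 70 intronic members span 51.6 kb, from Mir466m to Mir669h. In the central 27.5 kb, from Mir467a-1 to Mir669a-12, none of 35 members had an assigned read in either library. For 30 of these 35, every 20-base stretch also occurs in another listed hairpin, and reads with several mapping places count for no gene. The central members are thus not shown to be silent. The central stretch was delimited after the positions of the reads had been seen. It holds the regular copies of the array: 10 Mir467a genes at a median spacing of 2.46 kb and 10 of the 12 Mir669a genes at 2.46 kb, with 7 of the 8 Mir466b genes between them. The 10 Mir467a genes have 3 distinct hairpin sequences, and the 12 Mir669a genes have 4.

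The 16 members on the 5′ side of this stretch held 271 reads in replicate 1 and 317 in replicate 2, or 5.11% and 8.36% of member reads. Mir669e, Mir669l and Mir467c are the detected genes there. The 19 members on the 3′ side held 5034 and 3476 reads, or 94.9% and 91.6%, and include the 4 most abundant members and Mir669h. Mir467e, Mir467d and Mir669c lie there at 135, 137 and 139 kb from the annotated start of Sfmbt2, and the members between them are Mir466p with 1 read and Mir297c with 0. Neighbouring hairpins thus had unequal counts on both sides of the central stretch.

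**Figure D2:**
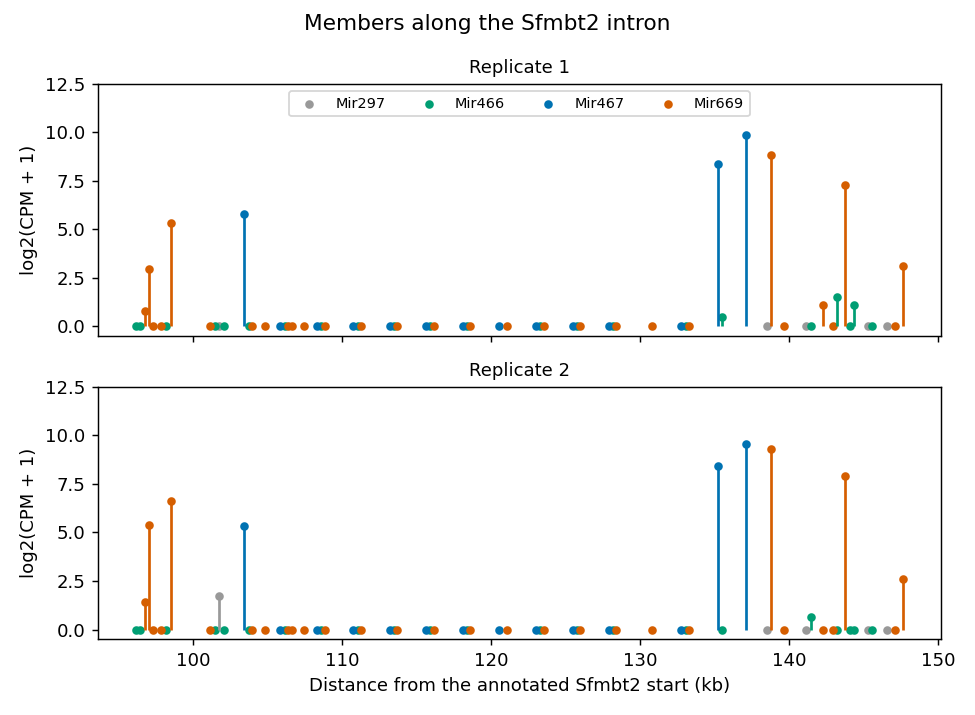
Each of the 70 intronic members by its distance in kb from the annotated start of Sfmbt2 (x axis) and its level as log2(CPM + 1) (y axis), with 1 panel per library and colours for the families. In both libraries the central copies sit at 0, and the tallest lines are Mir467e, Mir467d, Mir669c and Mir669o on the 3′ side. Reads with several mapping places count for no gene, so a level of 0 does not show that a copy is silent.

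Shared sequence ran in parallel with this layout. Of the 79 members, 77 (97.5%) share at least 20 bases, on either strand, with another listed miRNA hairpin at a different place, against 47.6% of the 2123 other miRNA genes. The 79 genes have 61 distinct hairpin sequences, and 24 genes have a hairpin identical to that of another member. For each hairpin the percentage of its 20-base stretches that occur in no other listed hairpin was computed, called here its own sequence. For 32 members it was 0%, and none of the 32 had a read. A count of 0 was nearly fixed in advance for them, since reads with several mapping places count for no gene. All 32 lie in the Sfmbt2 intron, 30 of them in the central stretch.

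Of 25 intronic members with own sequence above 0% and under 50%, 6 had a read and 1, Mir467d, was detected. Of 12 with 50% to under 100%, 9 had a read and 7 were detected. Among the miRNA genes that are not members, 1.49% of 269 with 0% own sequence had a read, 2.45% of 327 in the class under 50% and 25.8% of 414 in the class from 50% to under 100%. The classes were chosen after the counts had been seen, and the part of multiple mapping in the counts was not tested, because copies elsewhere in the genome were not searched.

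Several members departed from that layout. Own sequence was taken over the whole hairpin, and no mature strand was matched for the intronic members. Whether their mature arms also occur in other copies was therefore not tested. Mir467d, the highest, has 37.9% own sequence and shares 20 bases with 14 other hairpins, 13 of them members. In the other direction, Mir466g shares 20 bases with no other hairpin and had 0 reads. Mir669b (87.2% own sequence), Mir466l (85.3%) and Mir669i (73.1%) also had 0 reads, though they lie in the array near genes with reads. Mir669e has 95% own sequence and shares 20 bases with 1 other hairpin, and its mean CPM was below that of 6 members with less.

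**Figure D3:**
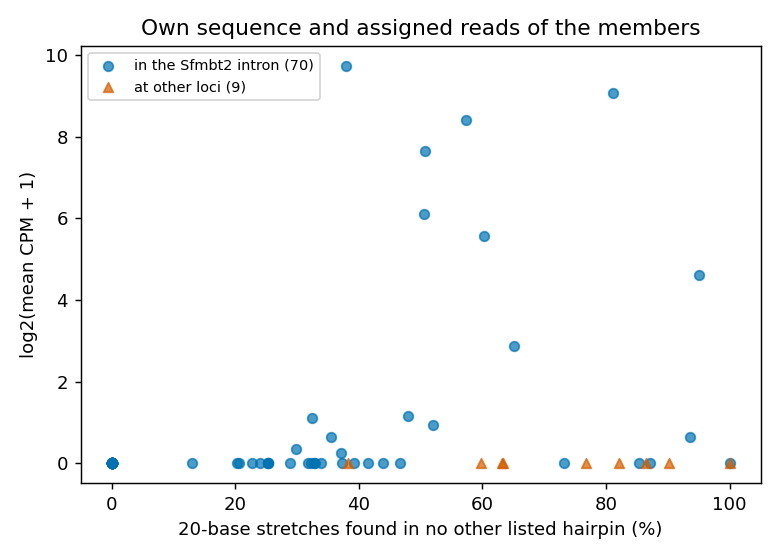
For each member, the percentage of its 20-base stretches found in no other listed hairpin (x axis) and its level as log2(mean CPM + 1) (y axis), with circles for the 70 members in the Sfmbt2 intron and triangles for the 9 at other loci. The 32 members at 0% all sit at 0 CPM, the detected members lie between 37.9% and 95%, and all triangles sit at 0 CPM. Reads with several mapping places count for no gene, so the members at 0% could hardly hold a read.

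The 9 members at other loci lie on 6 chromosomes and had 0 reads each. Mir466q lies in an intron of Tnik on the same strand. Mir467f lies in an intron of Fxr2, Mir466i of Cdk13, Mir466k of Gm37240, Mir669n of Slc30a7 and Mir467g of Grk4, each on the strand opposite to the host. Mir466j, Mir466f-4 and Mir467h overlap no annotated gene other than a miRNA gene. Their own sequence ranged from 38.2% in Mir467h to 100% in Mir669n, and 8 of the 9 had 50% or more. Their hairpins were made of T and G for a median of 67.1% of bases, against 49.6% in the intronic members and 53.3% in the other miRNA genes.

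No member had an antisense read, and counting without regard to strand gave each of the 79 the same reads as the sense count, as it did for 97.0% of all 2202 miRNA genes. The Sfmbt2 gene also holds 49 miRNA genes outside the rule, among them Mir466 and many with Gm symbols. They had 1 read in each library, from Gm22239 in replicate 1 and Gm25263 in replicate 2, against 5305 and 3793 for the members. Of these 49 genes, 48 share 20 bases with another hairpin. In the Mir344 family, another multicopy group on chromosome 7, 3 of 13 genes were detected, with a summed 48.2 and 30.9 CPM. Among all miRNA genes outside the members that share 20 bases, 79 of 1010 (7.82%) were detected, against 31.9% of those that share none.

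The spread between the libraries was judged gene by gene with a two-sided Fisher's exact test of its reads against the rest of each library, adjusted by Benjamini-Hochberg over all 542 genes at 2 CPM or more in either library. It compares these libraries and no conditions, and a gene was called where its adjusted p was under 0.05 and its levels differed at least 2-fold. Log2 ratios are replicate 2 over replicate 1. Of 9 members tested 2 were called, both higher in replicate 2, against 12.0% of all genes called and 5.72% called and higher in replicate 2. Mir669e had a log2 ratio of 2.56 (95% counting interval 1.83 to 3.43, adjusted p = 6.12e-14 by Fisher's exact test). Mir669l had 1.29 (0.94 to 1.66, adjusted p = 8.22e-13 by the same exact test). Both lie on the 5′ side of the array, at 97.0 and 98.5 kb from the annotated start of Sfmbt2, and their levels are 40.6 and 97.1 CPM in replicate 2. The lower limit for Mir669l is under the minimum log2 ratio of 1.

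With no minimum on the ratio 5 of the 9 passed the adjusted p, against 42.3% of all tested genes. The added ones were Mir467d with a log2 ratio of -0.29, Mir669c with 0.48 and Mir669o with 0.66. Mir467d was lower in replicate 2 and both Mir669 genes were higher. Mir467e (0.06), Mir467c (-0.45), Mir669h (-0.50) and Mir297a-2 did not pass. Mir297a-2 had 0 reads in replicate 1, so it is given no ratio, and its adjusted p was 0.0568 by Fisher's exact test. Across the 8 detected members the median size of the log2 ratio was 0.49, against 0.35 over the 442 detected genes, and 5 of the 8 were higher in replicate 2, against 199 of the 442. The biological coefficient of variation that edgeR estimated over those 442 genes was 35.5%. The coefficient of variation of Mir467d (14.1%), Mir669c (23.5%), Mir467e (2.72%), Mir669o (31.9%), Mir467c (22.2%) and Mir669h (26.1%) lay under it, and those of Mir669l (59.5%) and Mir669e (101%) above it. The measures are unlike, because a member's value is SD over mean and includes counting error, while the edgeR estimate leaves counting error out.

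**Figure D4:**
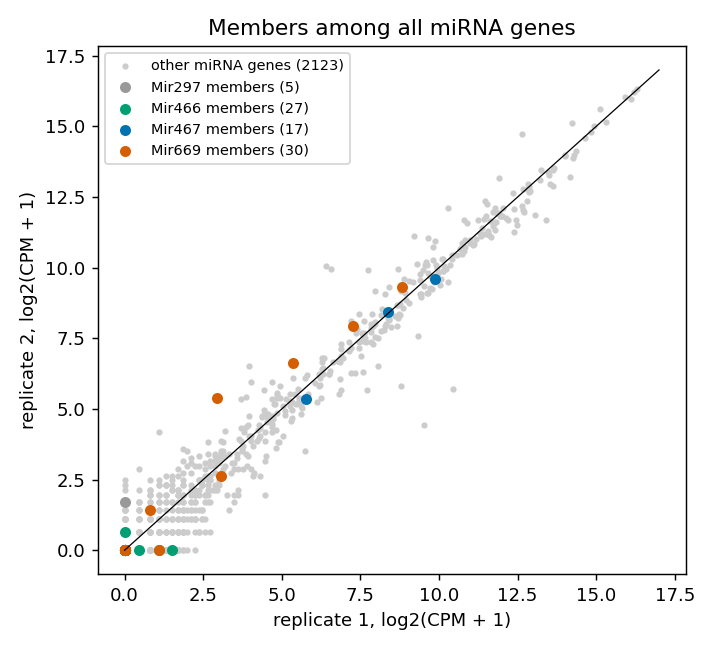
Level in replicate 1 (x axis) against replicate 2 (y axis), both as log2(CPM + 1), for the 79 members in colours by family and the 2123 other miRNA genes in grey, with the line of equal values. Among the detected members Mir669e and Mir669l lie farthest from the line, above it, with 6.72 against 40.6 CPM and 39.6 against 97.1 CPM.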

How the data were processed

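For each of the 2 libraries the authors deposited counts of reads by miRNA gene, made on mm10 with GENCODE M21 per the accompanying text files. The aligner, counter and trimming were not given in the sources used here. The files have 3 columns of counts (without regard to strand, sense, antisense, judged from their values), and the sense column was used. The 4 rows without a gene stayed out of totals. They hold unmapped reads (25.5% and 42.4% of all reads in replicates 1 and 2), reads mapped to more than 1 place (38.2% and 28.3%), reads outside genes (6.93% and 5.74%) and reads ambiguous between genes (0 in the sense column).

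Counts were divided by the sense total. Ratios had 0.5 reads added. Hairpins and positions came from GENCODE M21, which matched all 2202 identifiers, and mature strands from RefSeq. A count sums both arms of a hairpin, and CAST alleles were not considered. The samples are numbered as separate males but listed under 1 donor entry, and p-values compare single libraries. Tools were edgeR 4.0.16 (spread and TMM), DESeq2 1.42.0 (size factors) in R 4.3.3, and Python 3.11.15 with scipy 1.17.1. The library test was tried on simulated counts with counting error only. How it behaves under further spread between libraries was not tested.

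The members and lists were chosen with earlier results of these data known. Named are all members with a read, those at other loci and, chosen after their values were seen, members with much own sequence and 0 reads and Gm genes with a read.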

Additional observations from a re-analysis of the deposited data

How the results depend on the processing

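The summed share of the members was 0.222% with reads counted without regard to strand, 0.0835% with all mapped reads as the total and 0% when the 2 members that share no 20-base stretch were taken alone. Without a minimum on the log2 ratio, 5 members in place of 2 passed the library test. Mir467e was at 359 CPM without regard to strand, against 336 CPM, a gap above its SD, because the assigned total is smaller there. Leaving out a library gave shares of 0.198% to 0.217%, 8 to 9 detected members, 91.4% to 94.3% of member reads in the 4 most abundant genes and 100% of member reads in Sfmbt2. Of 77 values recomputed under other alternatives, counts with a library left out included, the remaining 72 kept their direction and side of the threshold, moved by no more than 1 SD or, for counts, stayed within 1.5 times. Some of the 77 could not move. Counting without regard to strand leaves each member's reads as they were, so shares among member reads stayed the same. Adding 1 read changes the ratio but not the p-value. Means with a library left out are not in this tally, since with 2 libraries such a mean always moves by less than 1 SD. That of Mir669e is 6.72 CPM without replicate 2 and 40.6 CPM without replicate 1, and that of Mir669l 39.6 and 97.1 CPM. Detected members numbered 6 at 10 CPM and 8 at 1 CPM. TMM and DESeq2 size factors raised all log2 ratios by 0.05 and 0.07, and 2 members were called under each. Over the alternatives the log2 ratio of Mir669e ranged from 2.54 to 2.63 (adjusted p by Fisher's exact test 1.27e-14 to 7.61e-14) and that of Mir669l from 1.28 to 1.36 (5.25e-14 to 1.40e-12). Stretches of 16, 18 or 22 bases, chosen after seeing the data, gave 32 members without own sequence and 0 with a read, as 20 bases did. This outcome had little room to differ, because reads with several mapping places count for no gene. No paired analysis was possible because the labels give 1 group. Depth limits members with few reads: 3 reads are 1.12 and 1.71 CPM.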
